A study of Homo sapiens with 12 samples.

Results

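The human mitochondrial genome encodes 7 subunits of respiratory complex I, and their genes are MT-ND1, MT-ND2, MT-ND3, MT-ND4L, MT-ND4, MT-ND5 and MT-ND6. They were chosen by name, and all 7 were found among the 60675 gene IDs of the deposited count table through their Ensembl IDs. Of these, 6 are transcribed from the heavy-strand promoter region and MT-ND6 alone is transcribed from the light-strand promoter. The cells were SW1783, an established line from a human astrocytoma, and each of 4 groups had 3 libraries. For 24 h, cells in growth medium received either PBS holding 2% DMSO as the vehicle, which was diluted by the medium, or Aconitum carmichaeli Debeaux (ACD) extracted in water and dissolved in that solvent, at 20 µg/mL (low dose), 100 µg/mL (medium dose) or 500 µg/mL (high dose). The treatment protocol in the sample labels describes another herb, Poria cocos, so the identity of the extract rests on the titles, the treatment field and the study itself. All libraries come from 1 cell line, and nothing in the labels says whether replicates were separate cultures, so that p-values measure the spread between these libraries.

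Complex I is the large enzyme of the inner mitochondrial membrane that takes electrons from NADH, passes them to ubiquinone and pumps protons. The mitochondrially encoded subunits form the core of its membrane arm, and all other subunits are encoded in the nucleus and imported. Each mitochondrial strand is transcribed as a long precursor, from which tRNAs are cut out so that the mRNAs and rRNAs between them are released. The mature mRNAs then differ in how fast they decay, and the heavy-strand mRNAs receive short poly(A) tails.

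The first 45 bases of each coding sequence are shown because the letters of MT-ND6 set it apart from the other members. They were read from chromosome M of the GRCh38 assembly (16569 bases), 5′ to 3′ in the sense of the mRNA, with the start codon in capitals.
MT-ND1 (chrM:3307-3351, plus strand): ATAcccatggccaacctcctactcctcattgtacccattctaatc
MT-ND2 (chrM:4470-4514, plus strand): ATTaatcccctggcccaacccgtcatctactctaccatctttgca
MT-ND3 (chrM:10059-10103, plus strand): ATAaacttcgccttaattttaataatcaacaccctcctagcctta
MT-ND4L (chrM:10470-10514, plus strand): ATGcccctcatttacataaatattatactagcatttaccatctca
MT-ND4 (chrM:10760-10804, plus strand): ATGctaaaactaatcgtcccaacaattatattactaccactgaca
MT-ND5 (chrM:12337-12381, plus strand): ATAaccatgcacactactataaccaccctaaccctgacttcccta
MT-ND6 (chrM:14629-14673, minus strand): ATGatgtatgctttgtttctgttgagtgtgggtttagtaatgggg
Over the whole gene, G made up 35.6% and C 7.05% of the bases of MT-ND6. In the 6 heavy-strand members G made up between 9.50% and 12.1%, and C between 29.5% and 36.0%.

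The last 27 bases are shown because they differ in whether the stop codon is complete in the gene. Capitals mark the final codon, or the part of it that the gene holds.
MT-ND1 (chrM:4236-4262, plus strand): aatctccagcattccccctcaaaccTA
MT-ND2 (chrM:5485-5511, plus strand): tctccccttttatactaataatcttaT
MT-ND3 (chrM:10378-10404, plus strand): tacaaaaaggattagactgaaccgaaT
MT-ND4L (chrM:10740-10766, plus strand): cataacctaaacctactccaatgcTAA
MT-ND4 (chrM:12111-12137, plus strand): ccgacatcattaccgggttttcctctT
MT-ND5 (chrM:14122-14148, plus strand): atcctaaccctactcctaatcacaTAA
MT-ND6 (chrM:14149-14175, minus strand): gtaattgagattgctcgggggaatAGG
In MT-ND1, MT-ND2, MT-ND3 and MT-ND4 the gene stops inside the last codon, which is completed by the poly(A) tail in the mature mRNA. MT-ND4L and MT-ND5 end with a full TAA, and the annotated coding sequence of MT-ND6 ends with AGG.

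A set of 3 junctions bears on how reads are assigned. MT-ND4L and MT-ND4 share 7 bases, in capitals here, and are carried by 1 bicistronic mRNA.
MT-ND4L end and MT-ND4 start (chrM:10742-10784, plus strand): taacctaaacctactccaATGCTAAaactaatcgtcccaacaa
MT-ND5 and MT-ND6 lie end to end on opposite strands with 0 bases between them, and the capitals mark the end of MT-ND6 as the plus strand reads it.
MT-ND5 end and MT-ND6 end (chrM:14128-14169, plus strand): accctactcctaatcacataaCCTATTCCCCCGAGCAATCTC
The RNA downstream of the MT-ND5 stop codon therefore runs antisense to MT-ND6. The libraries kept strand, but whether the counting used it is not stated in the sources used here, and without it such RNA and MT-ND6 mRNA cannot be told apart. Between the large rRNA gene MT-RNR2 and MT-ND1 lies the tRNA gene MT-TL1, in capitals, and 2 bases separate it from MT-ND1.
MT-RNR2 end, MT-TL1 and MT-ND1 start (chrM:3215-3321, plus strand): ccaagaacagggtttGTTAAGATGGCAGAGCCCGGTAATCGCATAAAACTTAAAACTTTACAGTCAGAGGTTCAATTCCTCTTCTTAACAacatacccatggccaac

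Nuclear copies of mitochondrial DNA can also take reads from these genes. Of 209 MTND pseudogenes listed in the table, only MTND2P28 (ENSG00000225630, chr1:629640-630683), a copy of MT-ND2, had a mean deposited count of at least 10, before normalisation. It is 98.2% identical to MT-ND2 in a global alignment, and 26.1% of the 100-base windows of MT-ND2 occur in it or another annotated nuclear copy without a mismatch. Its counts ranged from 1706 to 4222 per library, which was 3.50% to 4.54% of MT-ND2 and the copy together. For MT-ND1 10.97% of windows occur in an annotated nuclear copy, and for the other 5 members 0% do. MT-ND1 and MT-ND2 counts therefore carry a small uncertainty from shared reads.

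Total counts ranged from 18863863 to 24200576 per library, and between 209932 and 408882 of them fell on the MT-ND genes. Counting error of their sum is therefore small beside the spread between libraries. For MT-ND6, the member with the fewest counts, this did not hold in every group. At the medium dose its SD was 25.4 around a mean of 5230 normalised counts, no wider than counting error alone. A chi-square statistic over genes lay between 2.06 and 3.77 per degree of freedom for pairs of replicates, and the highest values, 3.67 and 3.77, were those of low dose replicate 1 with its partners. Counts on the mitochondrial rRNAs made up 0.913% to 0.960% of the total in vehicle libraries, 3.01% to 3.33% at the low dose, 7.67% to 8.05% at the medium dose and 5.76% to 6.06% at the high dose. Their part in the MT-ND values was not tested beyond the share given next. The astrocyte and glioma markers did not all bear out the astrocytoma label, since 7 of 12 had a mean under 1 CPM (counts scaled to the library total), among them GFAP, S100B and AQP4, and AQP4 was at 0 in every library. VIM and CD44, which many cell types express, made up 6793 to 7371 CPM of their summed level, and the other 10 markers together held 113 to 119 CPM in vehicle libraries, 104 to 111 in low dose libraries, 75.7 to 81.0 in medium dose and 63.1 to 68.3 in high dose libraries. SLC1A3 (log2 fold change -0.94) and NES (-0.74) of this list were called lower at the medium dose. At the high dose both were called lower (-2.45 and -1.72), and OLIG2, with a mean of 8.83 normalised counts, was called higher (3.93). The microglia and macrophage list held 16.5 to 17.2 CPM in vehicle libraries, 15.3 to 16.7 in low dose libraries, 9.92 to 11.2 in medium dose and 4.60 to 6.49 in high dose libraries, with TYROBP at 0 throughout and PTPRC called lower at the medium dose (-0.65). The neuron list held 68.1 to 72.0, 57.6 to 63.9, 52.0 to 53.7 and 49.8 to 54.3 CPM in the same order, with RBFOX3 at no more than 0.322 CPM and SNAP25 called lower at the medium dose (-0.85). The oligodendrocyte list held 6.82 to 8.97 CPM in vehicle, low and medium dose libraries and 11.85 CPM or more in high dose libraries, and the endothelial list at most 1.04. Of the other lists, PTPRC (-1.71), CSF1R (-1.14) and SNAP25 (-2.07) were called lower at the high dose and MBP (0.85) was called higher. The part of these markers in the MT-ND values was not tested.

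Per library, the MT-ND genes held 1.50%, 1.46% and 1.58% of all counts in the vehicle group, 1.88%, 1.38% and 1.59% in low dose libraries, 1.11%, 1.09% and 1.12% in medium dose and 1.26%, 1.23% and 1.23% in high dose libraries. The medium and high dose libraries were all below the vehicle and low dose libraries, while the low dose libraries lay on both sides of the vehicle libraries. The means were 1.51% ± 0.0619 (SD, n = 3), 1.62% ± 0.248, 1.11% ± 0.0154 and 1.24% ± 0.0151 from vehicle to high dose. The 4 groups differed by an exact permutation test over the arrangements of the 12 libraries (two-sided, p = 0.00286, and 0.00381 after Benjamini-Hochberg adjustment over a family of 12 shares and ratios). Low dose replicate 1 held the highest share, and without it the low dose mean differed from vehicle by -0.0248 percentage points in place of 0.105. With the rRNAs left out of the total, the differences from vehicle were 0.144, -0.324 and -0.211 percentage points from low to high dose. In bulk RNA, a change in the number of cells, in mitochondrial DNA per cell or in RNA per cell cannot be told apart.

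Levels between genes were compared as normalised counts per kb, with the DESeq2 size factor of each library divided out. The full annotated length was used without correction for fragment length. Ranks between genes of unlike length, such as MT-ND4L (297 bases) and MT-ND4 (1378 bases), are therefore approximate. In vehicle libraries MT-ND4 stood highest at 82197 ± 4136 per kb (SD, n = 3). MT-ND1, MT-ND3, MT-ND2 and MT-ND4L followed between 52204 and 53840 per kb, and neighbours in that order overlapped. MT-ND5 had 26781 ± 890 per kb and MT-ND6 was lowest at 9553 ± 638 per kb, each below all libraries of the member above it. At the low dose MT-ND1 led at 90861 ± 18738 per kb, but its libraries overlapped those of MT-ND2 below it. At the medium dose the order was MT-ND1, MT-ND2, MT-ND4, MT-ND3, MT-ND4L, MT-ND5 and MT-ND6, and no neighbours overlapped. At the high dose MT-ND4 was again first at 65298 ± 2243 per kb. MT-ND5 and MT-ND6 kept the last places in every group.

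MT-ND1 (ENSG00000198888, chrM:3307-4262, heavy strand) and MT-ND2 (ENSG00000198763, chrM:4470-5511, heavy strand) lie directly downstream of the rRNA genes, and both encode membrane-arm subunits, MT-ND1 at the ubiquinone-binding end. MT-ND1 had normalised counts of 50326, 47013 and 57074 in vehicle libraries, 106804, 72133 and 81653 in low dose libraries, 55342, 58968 and 57598 in medium dose and 53281, 52961 and 55411 in high dose libraries. MT-ND2 had 54766, 51588 and 57243 in vehicle libraries, 110040, 71678 and 84675 in low dose libraries, 54505, 55062 and 55389 in medium dose and 55531, 54914 and 62079 in high dose libraries. For both genes every low dose library was above every library of the other 3 groups, and those 3 groups overlapped one another. A gene was called when its DESeq2 adjusted p was under 0.05 and its fold change over 1.5 in either direction. At the low dose 2 of 7 members were called higher than vehicle, against 0.0967% of all genes tested. MT-ND1 rose by 0.75 on the log2 scale (SE 0.14, DESeq2 adjusted p = 6.52e-06) and MT-ND2 by 0.70 (SE 0.14, adjusted p = 6.09e-05). The size rests on low dose replicate 1, which had the highest count of both. Without it the log2 fold changes were 0.58 and 0.52, below the fold threshold, while the adjusted p stayed at 7.10e-09 and 1.51e-07. At the medium and high doses the log2 fold changes of these genes lay between 0.01 and 0.15, with 95% intervals from -0.26 to 0.42, and none passed.

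MT-ND3 (ENSG00000198840, chrM:10059-10404, heavy strand) encodes a small subunit near the joint between the arms of the complex. Its normalised counts were 17327, 16986 and 20414 in vehicle libraries, 21224, 17431 and 22531 in low dose libraries, 13992, 12162 and 12454 in medium dose and 19514, 16295 and 16638 in high dose libraries. Every medium dose library was below every library of the other groups, which overlapped. Its log2 fold change at the medium dose was -0.50 (SE 0.12, adjusted p = 0.000333), which passed the test without reaching the fold threshold. With library totals as size factors it was -0.61 (DESeq2 adjusted p = 3.94e-06), past both thresholds. At the low and high doses it was 0.16 and -0.06, and neither passed (adjusted p = 0.608 and 0.732).

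MT-ND4L (ENSG00000212907, chrM:10470-10766, heavy strand) and MT-ND4 (ENSG00000198886, chrM:10760-12137, heavy strand) lie side by side, and MT-ND4 encodes a proton-pumping subunit of the membrane arm and MT-ND4L a small subunit of the same arm. MT-ND4L had 15183, 16417 and 14914 normalised counts in vehicle libraries, 11483, 10442 and 11166 in low dose libraries, 9573, 8987 and 8585 in medium dose and 11760, 12831 and 11087 in high dose libraries. MT-ND4, the member with the most counts in vehicle libraries, had 110082, 109872 and 119848 there, 96801, 73642 and 85375 in low dose libraries, 67347, 63890 and 69230 in medium dose and 93203, 89698 and 87041 in high dose libraries. For both genes every dosed library was below every vehicle library, the medium dose libraries were lowest, and the low and high dose libraries overlapped. At the medium dose 2 of 7 members were called lower than vehicle, against 1.48% of all genes tested, and these were MT-ND4L and MT-ND4. Their log2 fold changes were -0.78 (SE 0.07, DESeq2 adjusted p = 2.30e-28) and -0.76 (SE 0.09, adjusted p = 1.96e-15). The adjusted p alone passed for 4 members lower at the medium dose, against 14.5% of all genes.

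MT-ND5 (ENSG00000198786, chrM:12337-14148, heavy strand) encodes the distal proton-pumping subunit. Its normalised counts were 50341, 47982 and 47257 in vehicle libraries, 41327, 36366 and 39173 in low dose libraries, 37374, 35995 and 35722 in medium dose and 37226, 36018 and 33458 in high dose libraries. All dosed libraries were below all vehicle libraries, and the 3 dosed groups overlapped. The log2 fold changes were -0.32, -0.42 and -0.45 from low to high dose (SE 0.05 at each, adjusted p = 1.54e-06, 8.82e-13 and 2.24e-15), so MT-ND5 was lower at every dose by less than the fold threshold. At the low dose the adjusted p alone passed for no member higher other than MT-ND1 and MT-ND2, which were called. It passed for 3 members lower, MT-ND4L, MT-ND4 and MT-ND5, against 1.24% of all genes tested. At the high dose 0 of 7 members were called, against 18.2% of all genes tested. The adjusted p alone passed there for the same 3 genes, all lower, against 22.6% of all genes. Their log2 fold changes at the high dose were -0.38 for MT-ND4L, -0.33 for MT-ND4 and -0.45 for MT-ND5. edgeR, the other tool run on the high dose, also called 0 members, and 3 members had an unadjusted p under 0.05 in DESeq2.

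MT-ND6 (ENSG00000198695, chrM:14149-14673, light strand) encodes a membrane-arm subunit. It had 5283, 5123 and 4640 normalised counts in vehicle libraries, 5598, 5021 and 4938 in low dose libraries, 5207, 5226 and 5257 in medium dose and 5226, 5189 and 4865 in high dose libraries. All 4 groups overlapped. The log2 fold changes against vehicle were 0.05, 0.06 and 0.02 from low to high dose (SE 0.05 at each, adjusted p = 0.723, 0.379 and 0.759), and the widest 95% intervals reached from -0.07 to 0.15. The intervals therefore leave room for a change of up to 1.11-fold upward or to 0.951-fold. With library totals as size factors the values at the medium and high doses turned to -0.05 and -0.09, where the median over 15282 genes was itself shifted by -0.11. A DESeq2 likelihood ratio test over the 4 groups passed for all 6 heavy-strand members (adjusted p from 3.27e-28 to 3.90e-06) and not for MT-ND6 (adjusted p = 0.751), against 45.8% of all genes tested.

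**Figure D1:**
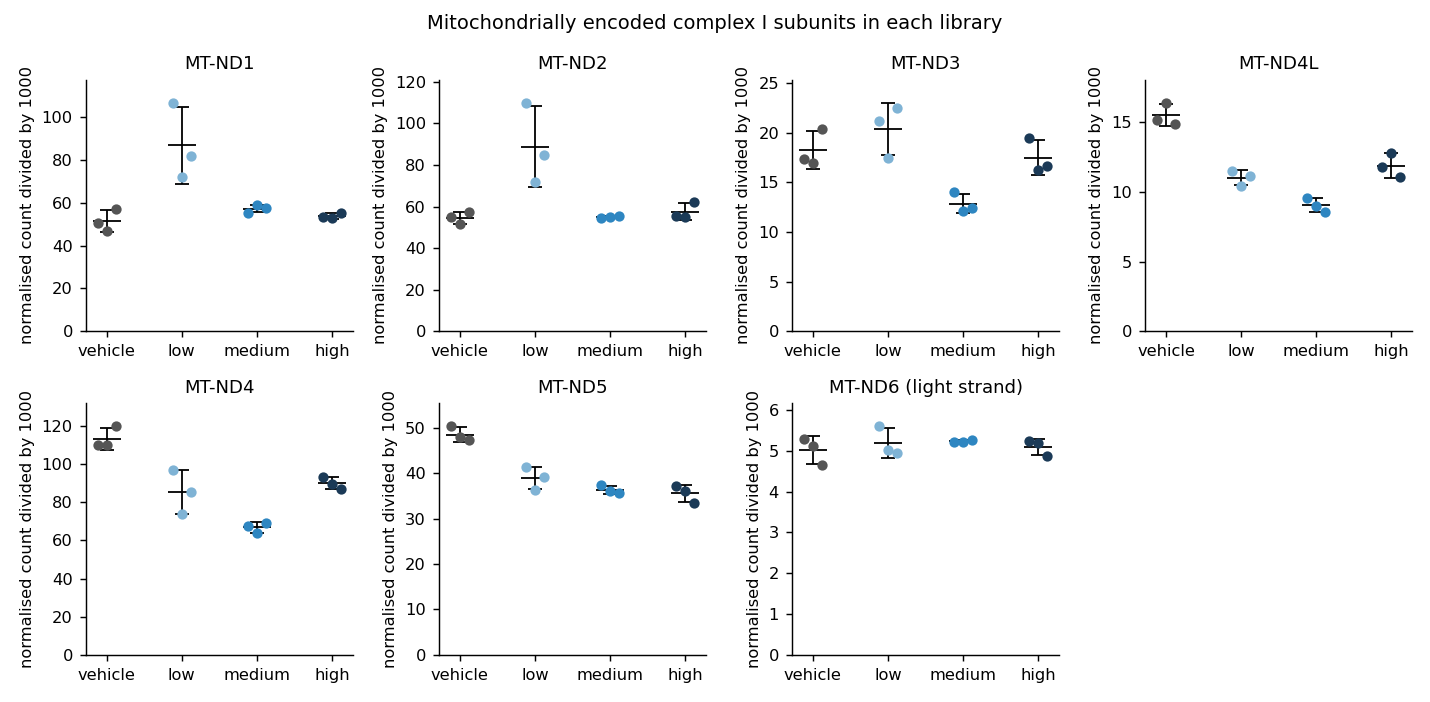
Normalised counts divided by 1000 (vertical axes, each from 0) of the 7 MT-ND genes in each of 12 libraries, by dose group. Points are libraries and bars are the mean ± SD (n = 3); MT-ND1 and MT-ND2 stand highest at the low dose, MT-ND4L and MT-ND4 lowest at the medium dose, and MT-ND6 overlaps in all groups.

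Set in map order, the heavy-strand RNAs fell into stretches that moved differently. Both rRNAs, which precede MT-ND1, were called higher at every dose. On the log2 scale MT-RNR1 rose by 2.64 at the low, 4.47 at the medium and 4.30 at the high dose, and MT-RNR2 by 1.70, 3.01 and 2.55. The ratio of MT-RNR2 to MT-ND1 counts was 3.41 ± 0.233 (SD, n = 3) in vehicle libraries, 6.66 ± 0.931 in low dose libraries, 24.5 ± 0.813 in medium dose and 19.0 ± 0.375 in high dose libraries. The groups did not overlap in this ratio, and the medium dose stood highest.

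Between MT-ND2 and MT-ND3 lie MT-CO1, MT-CO2 and MT-CO3, which encode subunits of cytochrome c oxidase, and MT-ATP8 and MT-ATP6 of ATP synthase. At the medium dose 3 of the 6 mitochondrial mRNAs that are not members were called lower. These were MT-CO2 (log2 fold change -0.78), MT-CO3 (-0.74) and MT-ATP6 (-0.62), close in size to MT-ND4L and MT-ND4. MT-CO1 was lower by adjusted p alone (-0.52, adjusted p = 1.42e-25), and MT-ATP8 had a value of -0.39 that did not pass (adjusted p = 0.0878). MT-CYB, the cytochrome b gene and the last heavy-strand mRNA, had -0.08 (adjusted p = 0.328). None of the 6 was called by DESeq2 at the low or high dose. At each of these doses 5 of them had an unadjusted p under 0.05 and 4 passed the adjusted p alone, all lower. The median log2 fold change was -0.23, -0.57 and -0.24 over these 6 from low to high dose. For the MT-ND genes it was 0.05, -0.42 and -0.06, and over all genes that averaged at least 10 normalised counts it was 0.00 at each. Of 22 mitochondrial tRNA genes, 5 had any count, with at most 3 in a library, so the tRNAs between the mRNAs could not be followed.

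**Figure D2:**
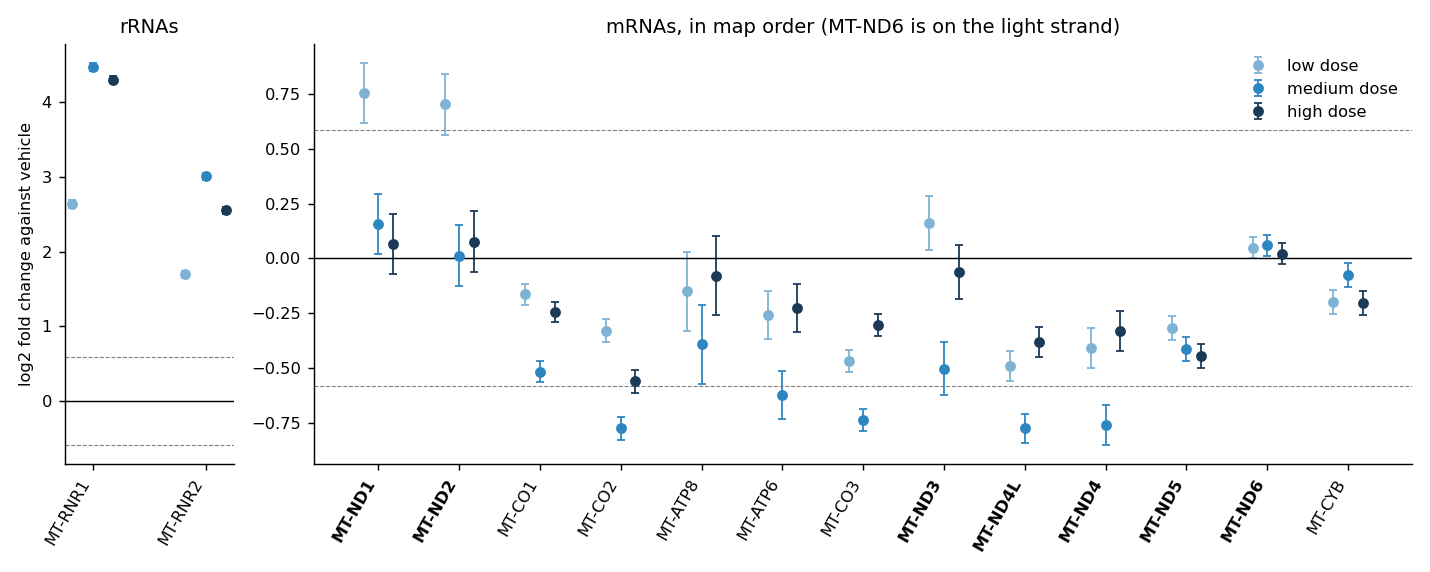
Log2 fold change against vehicle (vertical axes, different scales in the 2 panels) of the mitochondrial rRNAs and mRNAs in map order at 3 doses. Points are DESeq2 estimates from 3 libraries a group, bars are their SE, dashed lines mark a 1.5-fold change and bold names are the MT-ND genes. At the medium dose the fold changes of the genes from MT-CO1 to MT-ND5 lie between -0.78 and -0.39, while MT-ND1, MT-ND2 and MT-ND6 lie near 0 or above it.

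In direct comparisons of neighbouring doses, MT-ND3, MT-ND4L and MT-ND4 were lower at the medium dose than at both the low and the high dose by adjusted p. From low to medium dose 3 of 7 members were called lower, against 0.589% of all genes tested, and the adjusted p alone passed for 5 members lower, against 9.58%. The called genes were MT-ND1 (log2 fold change -0.60), MT-ND2 (-0.69) and MT-ND3 (-0.66). Without low dose replicate 1, MT-ND3 was the only one of these still called, and without medium dose replicate 1 the value of MT-ND1 was -0.58, just under the fold threshold. Same-numbered libraries of these 2 groups deviated together (correlations of 0.124 to 0.193). With the replicate number as a block over all 12 libraries, MT-ND1 (-0.59), MT-ND2 (-0.68) and MT-ND3 (-0.66) were again called. MT-ND5 also passed the adjusted p alone there (-0.10, DESeq2 adjusted p = 0.00754). From medium to high dose 0 of 7 members were called, against 10.2% of all genes tested. The adjusted p alone passed for 3 members higher, against 21.1% of all genes. These were MT-ND3 (0.44, DESeq2 adjusted p = 0.00122), MT-ND4L (0.39, adjusted p = 5.05e-08) and MT-ND4 (0.43, adjusted p = 1.24e-05). MT-ND5 and MT-ND6 changed by less, with 95% intervals of -0.14 to 0.08 and -0.13 to 0.06. edgeR also called 0 members from medium to high dose, and 3 had an unadjusted p under 0.05 in DESeq2.

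To ask which members moved apart from the rest of the mitochondrial mRNA pool, counts were also scaled to the 12 heavy-strand mRNAs, members included. This scaling moved the median over all genes by 0.25, 0.57 and 0.29 from low to high dose on the log2 scale, so its values describe ratios to that pool. At the low dose 2 of 7 members were called higher, against 0.798% of all genes tested, and these were MT-ND1 (log2 fold change 0.98, SE 0.08) and MT-ND2 (0.93, SE 0.08). At the medium dose 2 of 7 were called higher, against 32.7% of all genes, namely MT-ND1 (0.72, SE 0.08) and MT-ND6 (0.63, SE 0.07, DESeq2 adjusted p = 4.54e-19). The median over all genes on this scale, 0.57, itself lay just under the fold threshold. MT-ND2 lay at 0.58 there, also just under it. Which of these 2 members was called depended on the libraries and the scale. Without vehicle replicate 3, MT-ND2 was called (0.60) and MT-ND6 was not (0.56). Without vehicle replicate 1, medium dose replicate 1 or medium dose replicate 3, MT-ND2 was called as well (0.59, 0.61 and 0.61). With the summed counts of the pool as the scale MT-ND1 alone was called, and MT-ND6 stood at 0.52. At the high dose 0 of 7 were called, against 24.2% of all genes. MT-ND1, MT-ND2, MT-ND3 and MT-ND6 stood at 0.36, 0.37, 0.23 and 0.31 there, and MT-ND5 at -0.16, all past the adjusted p alone, and the first 4 lay near the median shift of all genes. At the low dose MT-ND6 stood at 0.29 (adjusted p = 0.000368).

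Within the set, the makeup of the counts shifted from MT-ND4 towards MT-ND1 and MT-ND2. In vehicle libraries MT-ND4 held 36.9% ± 0.563 (SD, n = 3) of all MT-ND counts, and it held 25.4% ± 0.692 in low dose libraries, 27.5% ± 0.887 in medium dose and 33.2% ± 0.865 in high dose libraries. MT-ND1 held 16.8% ± 0.922, 25.7% ± 1.28, 23.6% ± 0.899 and 19.9% ± 0.583 in the same order. Both differed among the 4 groups with the smallest p that the exact permutation test can give here (6.49e-05, adjusted 0.000195). The shares of MT-ND2, MT-ND4L, MT-ND5 and MT-ND6 also differed, with adjusted p from 0.000623 to 0.00302 by the same exact permutation test. All shares add up to the whole, so a change in any member moves the others and these are not separate results. The normalised counts of MT-ND6 itself overlapped in all 4 groups. The share of MT-ND3 lay between 5.30% and 6.44% in group means and did not pass (exact p = 0.151).

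**Figure D3:**
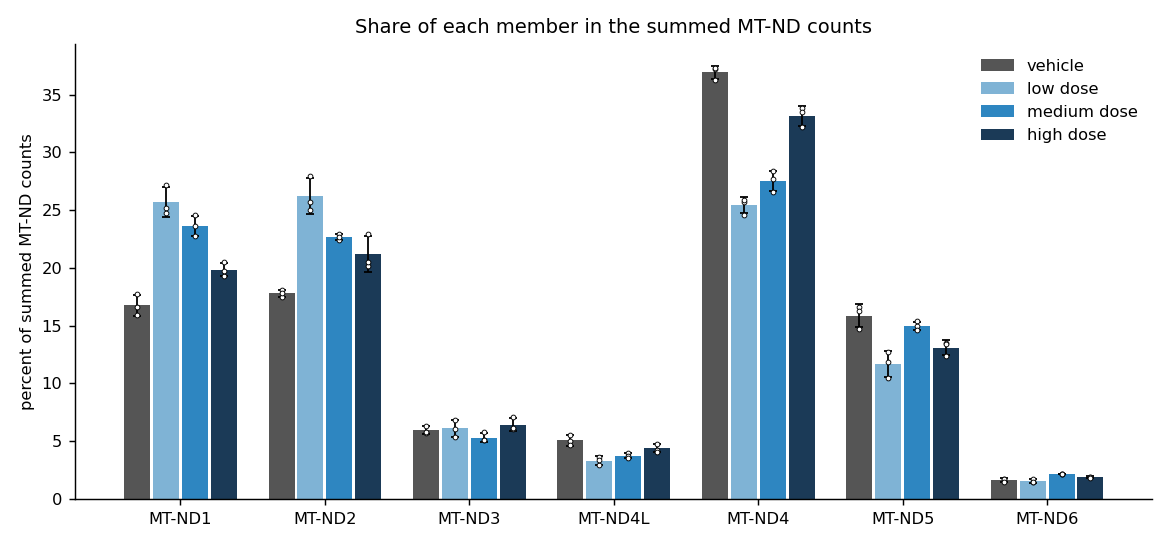
Percent of the summed MT-ND counts held by each member (vertical axis) in the 4 groups. Bars are means with SD (n = 3) and circles are libraries. MT-ND4 falls from 36.9% in vehicle libraries to 25.4% at the low dose, while MT-ND1 goes from 16.8% to 25.7%.

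The ratio of MT-ND1 and MT-ND2 together, the members next to the promoters, to MT-ND3, MT-ND4L, MT-ND4 and MT-ND5 together was 0.545, 0.516 and 0.565 in vehicle libraries. It was 1.27, 1.04 and 1.05 in low dose libraries, 0.856, 0.942 and 0.897 in medium dose and 0.673, 0.697 and 0.793 in high dose libraries. The groups did not overlap, and the order ran low, medium, high dose and vehicle, so the smallest dose had the largest ratio. On the log2 scale the 4 groups differed (exact permutation p = 6.49e-05, the smallest it can give, adjusted 0.000195). This split of the members was chosen knowing that MT-ND1 and MT-ND2 had been called at the low dose in these data. The p is therefore not independent of the values that led to the split. With 3 libraries against 3, no dose can reach a two-sided exact p below 0.1 against vehicle on its own.

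MT-ND1 and MT-ND2 had near equal counts. Their count ratio was 0.942 ± 0.0475 (SD, n = 3) in vehicle libraries, 0.980 ± 0.0227 in low dose libraries, 1.04 ± 0.0279 in medium dose and 0.939 ± 0.0401 in high dose libraries. MT-ND4L and MT-ND4, which share an mRNA, had a ratio that varied as much within groups as between them. It was 13.8, 14.9 and 12.4 MT-ND4L counts per 100 MT-ND4 counts in vehicle libraries, 11.9, 14.2 and 13.1 in low dose libraries, 14.2, 14.1 and 12.4 in medium dose and 12.6, 14.3 and 12.7 in high dose libraries. All 4 groups overlapped in it. Exact permutation tests over the 4 groups gave p = 0.856 for MT-ND4L to MT-ND4 and p = 0.0352 for MT-ND1 to MT-ND2. The latter became 0.0528 when adjusted over 3 ratios of neighbouring members. Both of these ratios were chosen after the values were seen, whereas that of MT-ND6 to MT-ND5 had been listed as an alternative.

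The ratio of MT-ND6 to MT-ND5 sets the light-strand member against the heavy-strand gene beside it. MT-ND6 had 10.5, 10.7 and 9.82 counts per 100 MT-ND5 counts in vehicle libraries, 13.5, 13.8 and 12.6 in low dose libraries, 13.9, 14.5 and 14.7 in medium dose and 14.0, 14.4 and 14.5 in high dose libraries. Every dosed library was above every vehicle library, and the 4 groups differed (exact permutation p = 0.000714, adjusted 0.00214). MT-ND6 itself overlapped in all groups, and MT-ND5 was lower at every dose. Against all heavy-strand members together, MT-ND6 had 1.67 ± 0.176 counts per 100 (SD, n = 3) in vehicle libraries, 1.58 ± 0.177 in low dose libraries, 2.20 ± 0.0185 in medium dose and 1.91 ± 0.0741 in high dose libraries. The vehicle and low dose libraries overlapped here, and the 4 groups differed (exact permutation p = 0.00558, adjusted 0.00670). At the low dose the direction of the MT-ND6 ratio thus depended on whether MT-ND5 or the whole heavy-strand set, with MT-ND1 and MT-ND2 in it, was the reference.

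**Figure D4:**
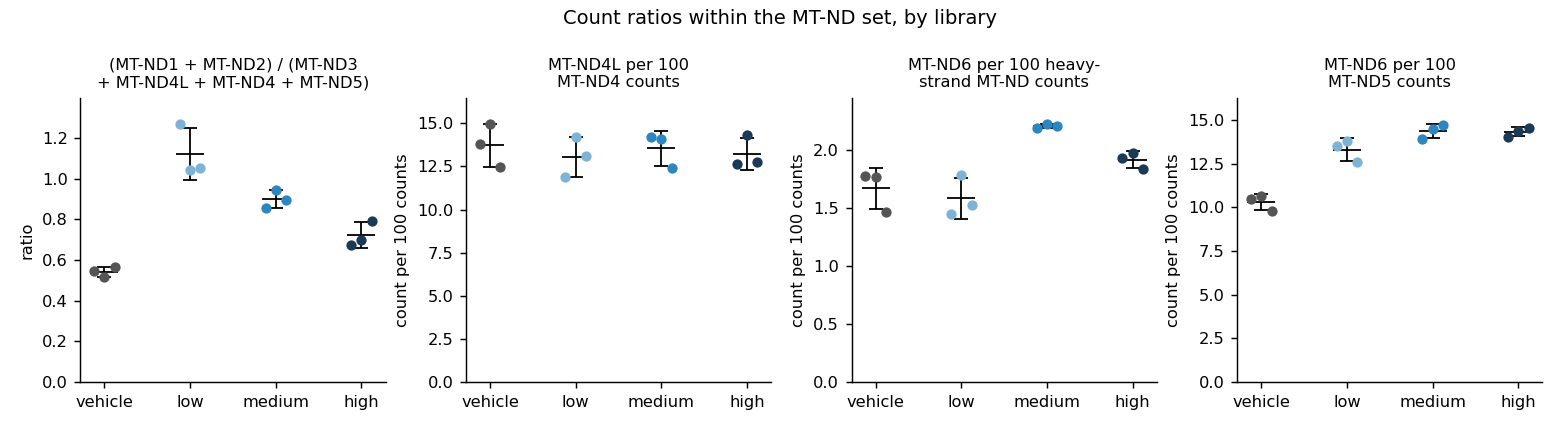
Count ratios within the MT-ND set in each library (vertical axes from 0), by dose group, with points for libraries and bars for the mean ± SD (n = 3). The ratio of MT-ND1 and MT-ND2 to the other heavy-strand members is highest at the low dose, MT-ND4L per 100 MT-ND4 counts overlaps in all groups, and MT-ND6 per 100 MT-ND5 counts is above vehicle in every dosed library.

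As a ratio to the other mitochondrial mRNAs, the summed MT-ND counts were higher in dosed than in vehicle libraries, and the difference lay in MT-ND1 and MT-ND2. The sum over all members was 0.562 ± 0.0131 (SD, n = 3) of those of the 6 other mRNAs in vehicle libraries, 0.733 ± 0.0626 in low dose libraries, 0.646 ± 0.0135 in medium dose and 0.612 ± 0.00407 in high dose libraries. The groups did not overlap, and the exact permutation test gave its smallest p, 6.49e-05 (adjusted 0.000195). MT-ND1 and MT-ND2 alone gave 0.194 ± 0.0104, 0.382 ± 0.0529, 0.299 ± 0.00608 and 0.251 ± 0.0143 from vehicle to high dose, and these groups did not overlap either. The other 5 members gave 0.368 ± 0.00360, 0.351 ± 0.0130, 0.347 ± 0.0134 and 0.361 ± 0.0109, where no group mean of the dosed libraries was above vehicle. This split was added after the values were seen and was not tested. At the medium and high doses MT-ND1 and MT-ND2 themselves had log2 fold changes from 0.01 to 0.15 against vehicle, and none passed. The 6 other mRNAs had medians of -0.57 and -0.24 at these doses, so a higher ratio there is not a rise of MT-ND1 and MT-ND2 alone.

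For comparison, all 37 nuclear subunits of a fixed list were found, 7 of the catalytic core and 30 accessory ones, and 0 were called at any dose by DESeq2. Their median log2 fold change was 0.00, -0.05 and -0.17 from low to high dose. At an unadjusted p under 0.05, 0, 6 and 24 of the 37 differed from vehicle in the same order of doses. By adjusted p alone 21 of the 30 accessory subunits were lower at the high dose, against 22.6% of all genes. Among the accessory subunits the largest change at the high dose was -0.58 in NDUFB3, of the membrane arm (DESeq2 adjusted p = 1.79e-06). Among the core subunits it was -0.29 in NDUFS3, of the peripheral arm (DESeq2 adjusted p = 0.000158). Both passed the adjusted p alone. At the medium dose the nuclear subunits lay between -0.25 and 0.21, whereas MT-ND3, MT-ND4L, MT-ND4 and MT-ND5 lay between -0.78 and -0.42 and MT-ND1, MT-ND2 and MT-ND6 (0.15, 0.01 and 0.06) lay within the nuclear range. At the high dose the nuclear subunits spread from -0.58 to 0.18 and the MT-ND genes from -0.45 to 0.08. The difference between the mean log2 normalised count of the MT-ND genes and that of the nuclear subunits was 4.77 ± 0.0284 (SD, n = 3) in vehicle libraries, 4.83 ± 0.152 in low dose libraries, 4.48 ± 0.0174 in medium dose and 4.78 ± 0.0485 in high dose libraries. The 4 groups differed (exact permutation p = 0.0137, adjusted 0.0149), with the medium dose lowest.

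**Figure D5:**
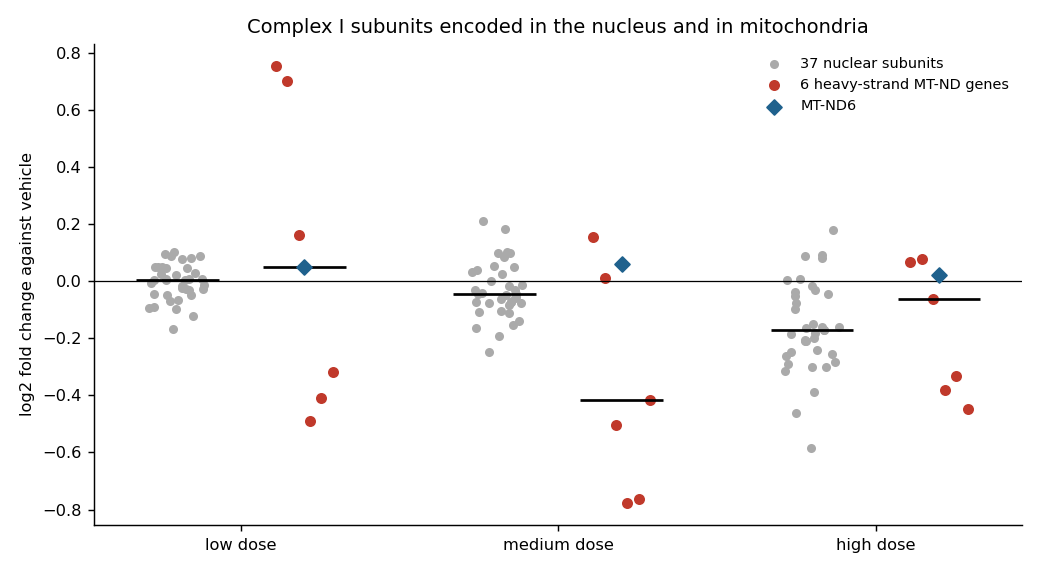
Log2 fold change against vehicle (vertical axis) of 37 nuclear complex I subunits (grey), 6 heavy-strand MT-ND genes (red) and MT-ND6 (blue diamond) at 3 doses, from 3 libraries a group. Black lines are medians, over all 7 MT-ND genes on the right of each pair, and the MT-ND genes spread from -0.78 to 0.75 while the nuclear subunits stay between -0.58 and 0.21.

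None of 18 complex I assembly factors was called by DESeq2 at any dose (0, 3 and 6 at an unadjusted p under 0.05 from low to high dose). At the low dose 15 of the 18 had an adjusted p, and NDUFAF5 was not among them. The largest change at the high dose was 0.42 in TMEM186 (DESeq2 adjusted p = 0.0100). Over all genes tested, 18.2% were called at the high dose, the share to set beside the short lists that follow. Of 5 genes of mitochondrial transcription, 0 were called at the low and medium doses (0 and 3 at an unadjusted p under 0.05). At the high dose 1 of these 5 was called higher and 2 lower, against 18.2% of all genes called in either direction. By adjusted p alone 4 passed, 3 of them lower, against 22.6% of all genes lower. This short list was not tested as a set. POLRMT, the mitochondrial RNA polymerase, was the gene called higher (log2 fold change 0.74). The elongation factor gene TEFM (-0.61) and the terminator-binding factor gene MTERF1 (-0.69), named after their values were seen, were called lower. Of 13 genes of mitochondrial RNA processing, stability and decay, 0 were called at the low and medium doses (1 and 6 at an unadjusted p under 0.05). At the high dose 1 was called higher and 1 lower, against 18.2% of all genes called in either direction. SUPV3L1, the helicase of the mitochondrial RNA degradosome, rose by 1.08 on the log2 scale, and FASTKD5, which acts in mitochondrial RNA processing and was named after its value was seen, had a log2 fold change of -1.06. POLRMT (0.31, DESeq2 adjusted p = 6.05e-05), SUPV3L1 (0.32, adjusted p = 6.42e-07) and FASTKD5 (-0.50, adjusted p = 7.60e-06) passed the adjusted p at the medium dose without reaching the fold threshold.

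Across the 12 libraries, MT-ND1 and MT-ND2 had a Pearson correlation of 0.97 in log2 normalised counts, and MT-ND4L and MT-ND4 of 0.94. MT-ND6 had correlations between -0.24 and 0.27 with the other members. These values describe libraries that share dose groups and a size factor each. Among 11222 other genes that averaged at least 100 normalised counts, the closest patterns to MT-ND4 were those of MT-ATP6 (0.98), MT-CO3 (0.96) and MT-CO1 (0.94), and the closest to MT-ND4L was MT-CO3 (0.95), followed by LRRC47 and BLOC1S2. MT-ND1 and MT-ND2 were closest to MTND2P28 (0.88 and 0.90), the nuclear copy that shares reads with MT-ND2. NDUFAF5, a complex I assembly factor gene, was next for MT-ND1 at 0.83 and came after THOC2 (0.88) for MT-ND2. The third gene for MT-ND1 was NAT10 (0.82). For MT-ND3 the closest were TSC22D2 (0.88), USP14 and UPF3B, for MT-ND5 SMIM7 (0.97), PHLPP2 and PURB, and for MT-ND6 SCLT1 (0.90), MICB and OPA1.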

How the data were processed

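Expected counts per gene were deposited for 12 RNA-seq libraries. The authors made strand-specific libraries, which the paper calls mRNA libraries, from total RNA and sequenced paired ends of 100 bases. The submitters' processing notes name FastQC 0.11.9, Trim Galore 0.6.5, STAR 2.7.3a and RSEM 1.3.3, with GRCh38 as the build. Poly(A) selection and the strand setting of RSEM are not given in the sources used here. RSEM shares ambiguous reads among genes, and 8.75% of values were not whole, so the expected counts were rounded for the tests.

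Names and coordinates came from GENCODE 44, which is newer than the Ensembl annotation used for counting. Groups came from the sample labels, and 0 columns were left over. Differences were tested with DESeq2 1.42.0 in R 4.3.3 (two-sided Wald test on all 12 libraries, group as the sole term, Benjamini-Hochberg adjustment over all genes tested), with a call at an adjusted p under 0.05 and a fold change over 1.5. 95% intervals are the estimate ± the normal quantile times its SE. Shares and ratios used unrounded counts and exact permutation tests over 369600 arrangements. The code was tested on simulated data.

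Alternatives were edgeR 4.0.16, library totals as size factors, a filter of 10 counts in 3 libraries, the adjusted p alone, a replicate block, fits of 2 groups, added nuclear copies and leaving out each library. All members are named, with the 3 genes of closest pattern for each, all mitochondrial rRNAs and mRNAs, and the most changed gene of each fixed list at the high dose. Of 14 genes listed for mitochondrial RNA processing, 13 matched. Members and lists were chosen with earlier results of these data known.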

Additional observations from a re-analysis of the deposited data

How the results depend on the processing

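Of 91 recomputed counts of called members, 83 stayed within 1.5 times the reported count. With the adjusted p alone, 3 members were lower than vehicle at the low dose, against 1.24% of all genes tested, besides the 2 called higher. At the medium dose 4 were lower (against 14.5%), and at the high dose 3 (against 22.6%). From medium to high dose 3 were higher (against 21.1%), and from low to medium dose 5 were lower (against 9.58%). Without low dose replicate 1, 0 members were called at the low dose and 1 from low to medium dose. Over all libraries left out in turn, these counts ranged from 0 to 2 and from 1 to 3. Relative to summed heavy-strand mRNAs, 1 member was called at the medium dose. With library totals as size factors MT-ND3 joined the members called at the medium dose, which made 3. Adding the nuclear copies, edgeR, the low count filter and fits of 2 groups moved none of the counts by over 1.5 times.

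Of 588 recomputed fold changes of single members, 16 changed sign, all among values that were not called. With library totals as size factors, the high dose values turned to -0.047 for MT-ND1, -0.037 for MT-ND2 and -0.092 for MT-ND6, the medium dose values to -0.099 for MT-ND2 and -0.051 for MT-ND6, and MT-ND6 from low to medium dose to -0.062. That scaling shifted the median of all genes by -0.11 at both doses. MT-ND3 relative to summed heavy-strand mRNAs turned to -0.035 at the medium dose. With libraries left out, MT-ND2 at the medium dose ranged from -0.027 to 0.048, MT-ND3 at the high dose from -0.15 to 0.026 and MT-ND3 relative to the heavy-strand mRNAs at the medium dose from -0.0094 to 0.14. MT-ND6 ranged from -0.032 to 0.060 in the high dose comparison, from -0.011 to 0.087 in that of the low dose and from -0.023 to 0.070 from low to medium dose, and MT-ND5 from medium to high dose ranged from -0.065 to 0.010.

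Of 477 recomputed shares and ratios, 5 changed sign. The low dose difference in the share of counts on the MT-ND genes ranged from -0.0248 to 0.222 percentage points with libraries left out. The difference from the nuclear subunits ranged from -0.013 to 0.139 at the low dose and from -0.0098 to 0.0383 at the high dose. The share of MT-ND3 at the low dose ranged from -0.203 to 0.518 percentage points, an alternative added after seeing the data. The MT-ND6 ratio at the low dose turned from -0.076 to 0.367 with MT-ND5 as the reference. The causes were not tested.

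Same-numbered libraries correlated between -0.118 and 0.221 in their deviations from group means. Only the low and medium dose groups had every same-numbered pair over 0.1 (0.124 to 0.193). The highest single value, 0.221, was that of replicate 3 of the medium and high doses, and pairs with vehicle libraries were all negative. The replicate block was nevertheless fitted over all 12 libraries, so it also pairs groups whose same-numbered libraries did not deviate together. With the replicate block, 2, 2 and 0 members were called from low to high dose, and MT-ND6 had an adjusted p of 0.601 over the 4 groups. The block changed the call of no member from low to medium dose, and 6 members in place of 5 passed the adjusted p alone there. Reads that share a nuclear copy, and the strand setting of the counting, limit MT-ND2 and MT-ND6.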
